A study of Danio rerio with 6 samples.

Results

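The 200 most abundant transcripts of wild-type zebrafish embryos at 36 h post fertilization (hpf) were described in tp63 mutant and WT embryos. RNA-seq had been made from whole embryos, with 3 tp63 mutant replicates (genotype tp63 -/-) and 3 WT replicates, each a pool of embryos of that genotype. Both tp63 copies of the mutants carry the same short CRISPR/Cas9 deletion, which truncates p63 in any isoform and leaves no detectable protein, and no further allele or treatment is named for either genotype. Fin and skin development is already visibly abnormal in mutants of this age, so the genotypes differ in the tissues that gave the RNA. The members were chosen by their measured level in WT. The count of each transcript was scaled by the summed counts of its sample (CPM, the count that would fall on it at a fixed library size), and the 200 transcripts with the highest mean CPM over the 3 WT samples were taken out of 58549. The choice used the WT values only, and those values are therefore given as a description.

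The transcription factor p63, encoded by tp63, directs the development of the epidermis and of other ectoderm-derived structures such as fins. A pharyngula-stage embryo at this age already has beating heart, contracting trunk muscle, lens fibres, circulating red blood cells, an epidermis and a yolk that still feeds it. In whole embryos the counts of an RNA-seq library usually concentrate on few transcripts, among which are those of the ribosome, of the mitochondria and of the main structural proteins of such tissues. The count files give Ensembl transcript identifiers without gene names, and the gene tables used here list none of these identifiers. The members could therefore not be assigned to genes, tissue markers or sequences, and they are called by their rank in WT or by their identifier. For the same reason neither the transcripts of tp63 nor the markers of the embryonic tissues were checked.

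Mean WT levels of the members spanned 15-fold. The transcript ranked first had 11364 ± 709 CPM in WT (SD, n = 3), and the transcript at rank 200 had 758 ± 75.7 CPM. The next transcript in rank, just outside the limit, had 758 ± 75.7 CPM as well, with counts that differed by far less than the spread between samples, so the border between members and non-members is narrow. The files give no transcript lengths. A CPM counts reads without correction for length, and a long transcript collects more of them at the same number of molecules, so these ranks order the read counts and not the numbers of RNA molecules. The lowest count of any member in any sample was 18789. If each count is a separate read, this gives a counting error of at most 0.730%, much smaller than the differences between replicates described below. With the minimum on low counts applied, 41974 transcripts were tested, all 200 members among them.

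**Figure D1:**
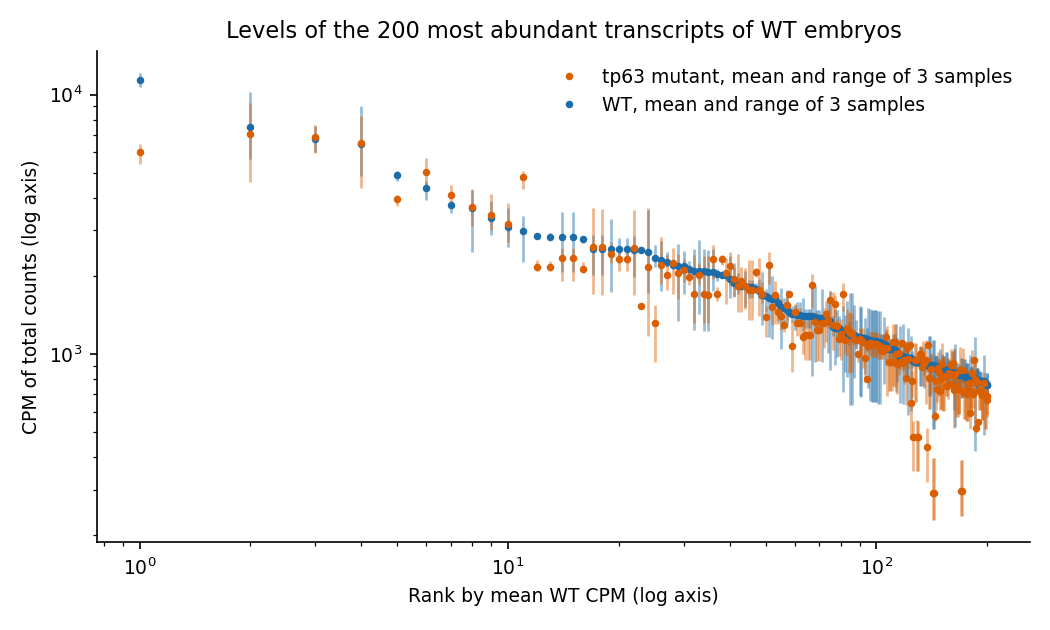
CPM of total counts (log axis) of the 200 members against their rank by mean WT CPM (log axis), with the mean and the range of the 3 tp63 mutant samples in orange and of the 3 WT samples in blue. The first-ranked transcript lies clearly lower in tp63 mutants, at a mean of 6005 CPM against 11364 CPM in WT, and a few members beyond rank 100 fall far under the WT curve, while most mutant points follow it.

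The members were 0.342% of the transcripts and held more than 25% of the counts in every library. Their share of all counts was 28.6%, 25.6% and 29.5% in tp63 mutant replicates 1, 2 and 3, against 32.4%, 27.1% and 30.3% in WT replicates 1, 2 and 3. The replicate numbered 2 had the smallest share within each genotype, and the ranges of the genotypes overlapped. The mean share was 27.9 ± 2.05% in tp63 mutants and 29.9 ± 2.66% in WT (SD, n = 3 each), a difference of -2.06 percentage points that was smaller than the pooled SD of 2.38. The 95% Wilson intervals of single shares had half-widths of at most 0.0104 percentage points. They cover counting error only and assume that reads are counted once. The assigned counts exceed the number of reads that the study's methods state, so a read may have been counted more than once.

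The 10 members of highest WT level alone held 4.84%, 4.36% and 5.75% of the counts in the mutant samples, against 6.15%, 5.12% and 5.28% in the WT samples. Since the WT values chose the members, the concentration of counts was also measured without a common list, by letting each sample rank its own transcripts. The own 200 most abundant transcripts of a sample held 28.5 ± 1.90% of its counts in tp63 mutants and 30.2 ± 2.56% in WT (SD, n = 3 each). The difference of -1.66 percentage points lay within the spread between replicates (exact two-sided permutation test, p = 0.4, where 0.1 is the smallest p that 3 samples against 3 allow). From 699 to 1065 transcripts were needed to reach 50% of the counts of a mutant sample, against 576 to 854 in WT samples. Both upper ends came from replicate 2.

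**Figure D2:**
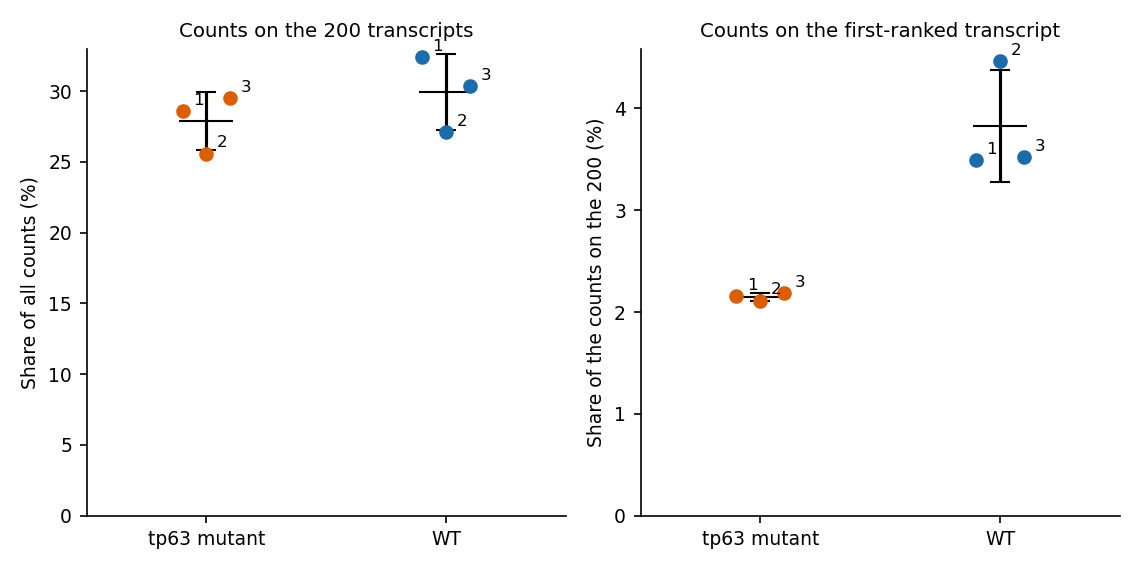
Left, share of all counts (%) that fell on the 200 members in each sample, and right, share of the members' own counts (%) that fell on the first-ranked transcript. Points are samples with their replicate number, and bars give the mean ± SD of 3 samples. The shares on the left overlap between tp63 mutants (25.6 to 29.5%) and WT (27.1 to 32.4%), and those on the right do not (2.11 to 2.19% against 3.49 to 4.46%).

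Members were not 200 independent measurements. No member had exactly the counts of another transcript in all 6 samples, but 82 members had counts within 2% of another member in every sample. They formed 34 sets, 24 of them pairs, 9 of them triplets and 1 of them with 7 members at WT ranks 96 to 102. Together with the 118 members that stood alone this left 152 sets at this limit. Members just beyond the limit counted apart, such as rank 16, whose values closely followed those of ranks 12 and 13. The number of distinct patterns may thus be lower than 152. The 7 members of the largest set had log2 fold changes between -0.26 and -0.26, that is, the same value to the second decimal. Transcripts of overlapping gene models that share reads would have such counts, and whether these do was not tested. For the main counts of members the number of distinct sets is added in parentheses.

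The spread between replicates was far larger than the counting error. Counts were normalized with the TMM method (trimmed mean of M-values), which scales each library to the bulk of its transcripts, and the result is called normalized CPM here. The TMM factors were 0.978, 1.20 and 1.02 in tp63 mutant replicates 1, 2 and 3, against 0.833, 1.08 and 0.922 in WT replicates 1, 2 and 3. A factor above 1 lowers the values of a library. In normalized CPM the median coefficient of variation of the members between replicates was 23.8% in tp63 mutants and 21.7% in WT. It was 20.8% in tp63 mutants and 17.5% in WT for the 800 transcripts that follow in WT rank, and 19.5% and 21.7% over all transcripts tested. On this scale the members thus varied about as much in WT as transcripts did overall. On the scale of CPM of total counts the members' medians were 15.6% in tp63 mutants and 11.0% in WT, close to the 16.0% and 10.5% of the next 800 transcripts. Over all transcripts tested they were higher there, 19.9% in tp63 mutants and 23.1% in WT, so the comparison depends on the scale.

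The spread ran in the same direction for most members. In normalized CPM, 143 of the 200 members had their lowest value of all samples in tp63 mutant replicate 2 and 41 in WT replicate 2, while 154 had their highest value in WT replicate 1. As the median log2 ratio to a member's own mean over the 6 samples, the members stood at 0.08, -0.50 and 0.02 in tp63 mutant replicates 1, 2 and 3, against 0.45, -0.17 and 0.21 in WT replicates 1, 2 and 3. Over all transcripts tested, with a small offset added to each value, such medians ran from -0.01 to 0.01. TMM scales each library to the bulk of its transcripts, so these had to lie near 0 and nothing is read from them. The libraries numbered 2 thus had low values of the members in both genotypes, and the libraries of the genotypes overlapped. On the scale of CPM of total counts the order was alike but weaker, with medians of 0.05, -0.23 and 0.05 in mutants against 0.19, -0.05 and 0.09 in WT. No batch is given in the labels, and the part of sample preparation in this pattern was not tested.

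**Figure D3:**
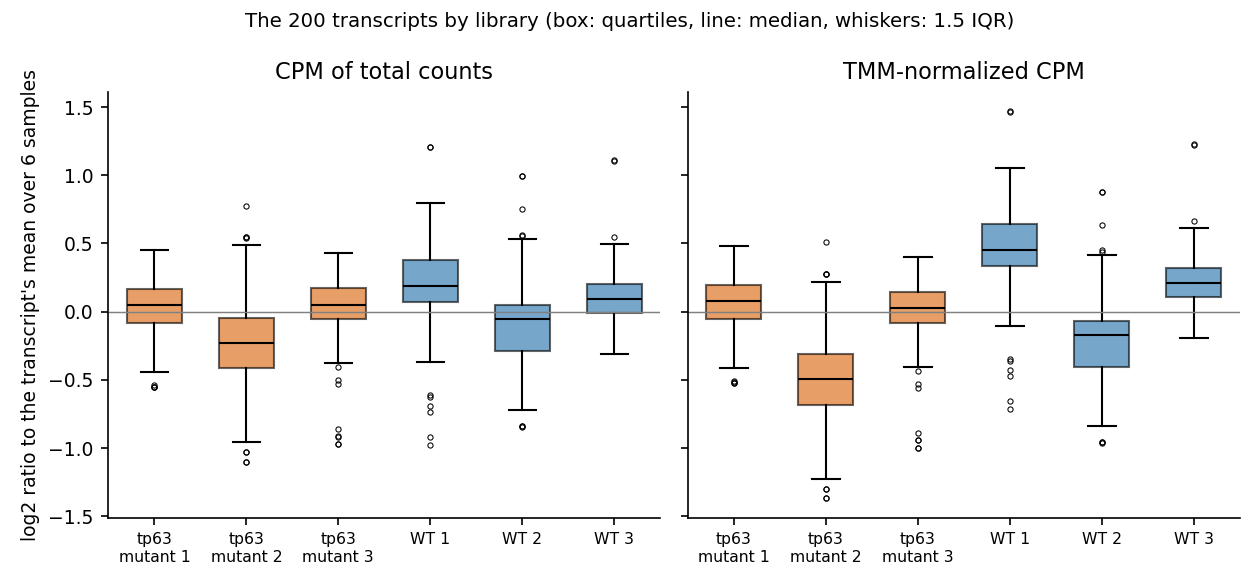
Log2 ratio of each member to its own mean over the 6 samples, by library, for CPM of total counts (left) and TMM-normalized CPM (right), with tp63 mutant libraries in orange and WT libraries in blue. Boxes give the quartiles and the median over the 200 members. In normalized CPM the median is lowest in tp63 mutant replicate 2 (-0.50) and highest in WT replicate 1 (0.45), and WT replicate 2 (-0.17) lies under tp63 mutant replicates 1 and 3.

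To ask which of the most abundant transcripts changed without p63, all 41974 transcripts were fitted together with edgeR's quasi-likelihood test, and p-values were adjusted over all of them by the Benjamini-Hochberg method. Of the 200 members 2, which formed 1 set, were down-regulated at an adjusted p under 0.05, against 1.22% of all transcripts tested. None was up-regulated, against 0.272% of all transcripts tested. In this fit the share of down-regulated members, 1.00%, was near the background. The WT values that chose the members also enter this test, and a choice by WT level favours transcripts that happen to be high in WT. At an unadjusted p under 0.05 the edgeR fit gave 19 (14 sets) lower members, 9.5%, and 0 higher ones. Of all transcripts tested, 5.93% were lower and 4.50% higher at that limit. DESeq2 called 15 members (11 sets), 7.5%, down and 0 up. It called 2.15% down and 0.832% up of the 48292 transcripts to which it gave an adjusted p. These 2 shares of lower members lay above those of all transcripts, and the choice by WT level enters both. Without both libraries numbered 2, a setting chosen after seeing the data, edgeR called 13 members (9 sets) down and 0 up, against 1.49% and 0.660% of its transcripts. The 2 members called in all samples remained called there, and 12 members (8 sets) were called both there and by DESeq2. Both of these fits use the libraries numbered 1 and 3, so the overlap is not independent support. Leaving out single libraries changed the count as well, to 0 without WT replicate 3, without tp63 mutant replicate 2 or without tp63 mutant replicate 3, and to 4 without WT replicate 2. The share of all transcripts called down moved with it, to 0.478%, 0.671% and 0.543% in the fits with 0 members and 1.32% in the fit with 4.

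The down-regulated pair was ENSDART00000138392.2 and ENSDART00000004812.9, at WT ranks 170 and 171, whose counts were almost the same in every sample. ENSDART00000138392.2 had 400 normalized CPM in tp63 mutant replicate 1, 198 in replicate 2 and 253 in replicate 3, against 1013, 895 and 736 in WT replicates 1, 2 and 3. All mutant samples lay under all WT samples, and the mutant sample numbered 1 was the highest of its genotype. The means were 284 ± 104 normalized CPM in tp63 mutants and 881 ± 139 in WT (SD, n = 3 each). The log2 fold change was -1.63 with an SE of 0.30, and edgeR's quasi-likelihood test gave a Benjamini-Hochberg adjusted p of 0.0287. ENSDART00000004812.9 gave the same log2 fold change of -1.63 with the same adjusted p in the edgeR fit, as counts that may come from the same reads must. Over the 15 alternative fits the adjusted p of either transcript ran from 2.14e-06 to 0.185, and 11 of them passed the threshold. In tp63 mutants both transcripts stood at ranks 528 and 530. In pooled whole embryos a lower level can come from fewer cells that hold a transcript or from less of it per cell, and these cannot be told apart.

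With the called pair, 9 members (5 sets) had an absolute log2 fold change of at least 1, and in all of them it was negative. They made up 4.50% of the members, where 5.81% of all transcripts tested had a change of that size in either direction. The other transcripts tested have lower WT levels and larger counting errors, so nothing is read from this difference. Of the 9 members, the 7 (4 sets) that missed the threshold had SEs of 0.29 to 0.42. The lowest log2 fold change of any member was that of the transcript at WT rank 142, with 407, 191 and 246 normalized CPM in tp63 mutant replicates 1, 2 and 3, against 1362, 476 and 1153 in WT replicates 1, 2 and 3. Its log2 fold change was -1.83, with an SE of 0.42 and an edgeR adjusted p of 0.0823. The genotypes did not overlap, but WT replicate 2 was closer to the mutant samples than to the other WT samples. In the alternative fits its adjusted p ran from 0.000215 to 0.354. The transcript at rank 137 had 531, 267 and 462 normalized CPM in the mutant samples, against 1138, 854 and 938 in the WT samples.

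Differences were steadier between replicates for the transcript at rank 23. It had 1545, 1502 and 1555 CPM of total counts in tp63 mutant replicates 1, 2 and 3, against 2516, 2457 and 2571 in WT replicates 1, 2 and 3. In normalized CPM the means were 1451 ± 177 in tp63 mutants and 2693 ± 384 in WT (SD, n = 3 each), with an estimated log2 change of -0.89, an SE of 0.25 and an edgeR adjusted p of 0.174. The SDs were thus small on the first scale, 27.8 CPM in mutants and 57.1 CPM in WT, and larger after normalization. Its adjusted p ran from 0.00188 to 0.599 over the alternative fits.

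**Figure D4:**
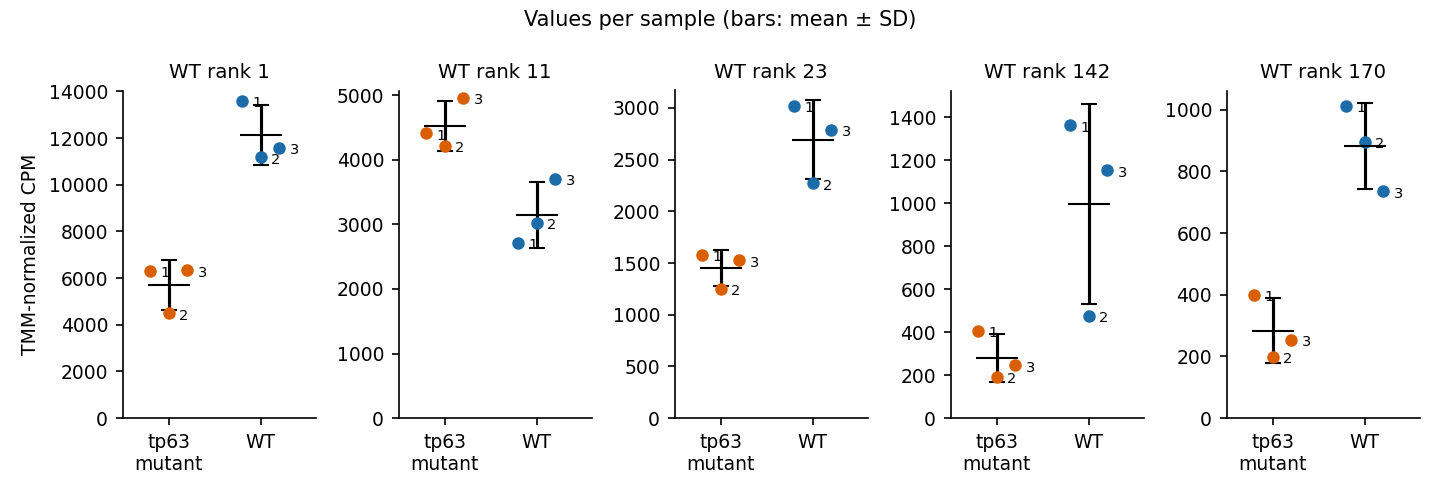
TMM-normalized CPM per sample for members at WT ranks 1, 11, 23, 142 and 170 (the last is ENSDART00000138392.2), with tp63 mutants in orange on the left of each panel and WT in blue on the right. Points are samples with their replicate number, and bars give the mean ± SD. In each panel the genotypes do not overlap, with lower mutant values for all but rank 11, while the spread at rank 142 in WT reaches from 476 to 1362.

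In level, the first-ranked transcript of WT embryos stood apart between the genotypes without passing the test. The transcript at rank 1 had 6161, 5401 and 6453 CPM of total counts in tp63 mutant replicates 1, 2 and 3, against 11313, 12096 and 10682 CPM in WT replicates 1, 2 and 3. The genotypes were far apart, and the mutant mean was 0.528 of the WT mean. As a share of the members' own counts, which does not depend on the scaling of a library, it took 2.16%, 2.11% and 2.19% in the mutant samples and 3.49%, 4.46% and 3.52% in the WT samples. Its log2 fold change on normalized CPM was -1.09 with an SE of 0.31, and the edgeR adjusted p of 0.170 missed the threshold. It passed in 4 of the 15 alternative fits, whose adjusted p ran from 9.57e-05 to 0.561, and the log2 fold change was negative in every one of them. In tp63 mutants it stood at rank 4 by mean CPM.

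None of the members at ranks 2 to 10 passed the threshold, with log2 fold changes between -0.49 and 0.04 and a smallest adjusted p of 0.626 in edgeR. In 7 of these 9 members the genotypes overlapped. The transcript at rank 2 had 7431, 3838 and 9104 normalized CPM in tp63 mutant replicates 1, 2 and 3, against 12273, 5195 and 7178 in WT replicates 1, 2 and 3, so that both lowest values came from libraries numbered 2. At rank 4 the values were 6965, 3639 and 8106 in the mutant samples, against 10872, 4481 and 5983 in the WT samples, with the same pattern. In normalized CPM the transcript at rank 3 had the lowest coefficient of variation of all members within WT, 1.68%. It had 6107, 6357 and 6850 normalized CPM in mutants and 7237, 7008 and 7185 in WT. Its mutant and WT values do not overlap on that scale, but in CPM of total counts they do, and there the mutant mean was 1.02 times that of WT. The transcript at rank 5 had 4165, 3095 and 4031 normalized CPM in mutants, against 6038, 4290 and 5487 in WT. It was lower without overlap on both scales, with a log2 fold change of -0.49, an SE of 0.29 and an edgeR adjusted p of 0.626.

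With TMM normalization, few members were higher in tp63 mutants, and their number depended on the scaling. With total counts only, 138 of the 200 log2 fold changes were negative, and 90 when scaled to the members' summed counts. The last setting was chosen after seeing the data. With TMM the log2 fold change was positive for 12 members, none of which passed the threshold. The smallest unadjusted p of the edgeR test among them was 0.0799. This belonged to the transcript at rank 11, with 4408, 4208 and 4954 normalized CPM in tp63 mutant replicates 1, 2 and 3, against 2707, 3020 and 3701 in WT replicates 1, 2 and 3. All mutant samples lay above all WT samples on both scales, and this was the only member of which this can be said in normalized CPM. Its log2 fold change was 0.53 with an SE of 0.27 and an edgeR adjusted p of 0.559, and the adjusted p ran from 0.0896 to 0.936 over the alternative fits, in which the log2 fold change stayed positive.

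Counting members whose mutant and WT values do not overlap gave 24 (19 sets) that were lower and 1 that was higher in tp63 mutants on normalized CPM. Among all transcripts tested, 9.03% were lower and 7.54% higher without overlap on this scale. In CPM of total counts the members numbered 23 (18 sets) lower and 8 (7 sets) higher, where 5.07% and 12.7% of all transcripts tested were lower and higher. As shares of the members, 12% and 11.5% were lower on the first and second scale, and 0.5% and 4% were higher. Because the members were chosen by their WT level, nothing is read from the direction of these shares. On both scales together 20 members (15 sets) were lower and 1 was higher without overlap, where 4.60% and 6.03% of all transcripts tested were lower and higher. All 15 members that DESeq2 called were among the 24.

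**Figure D5:**
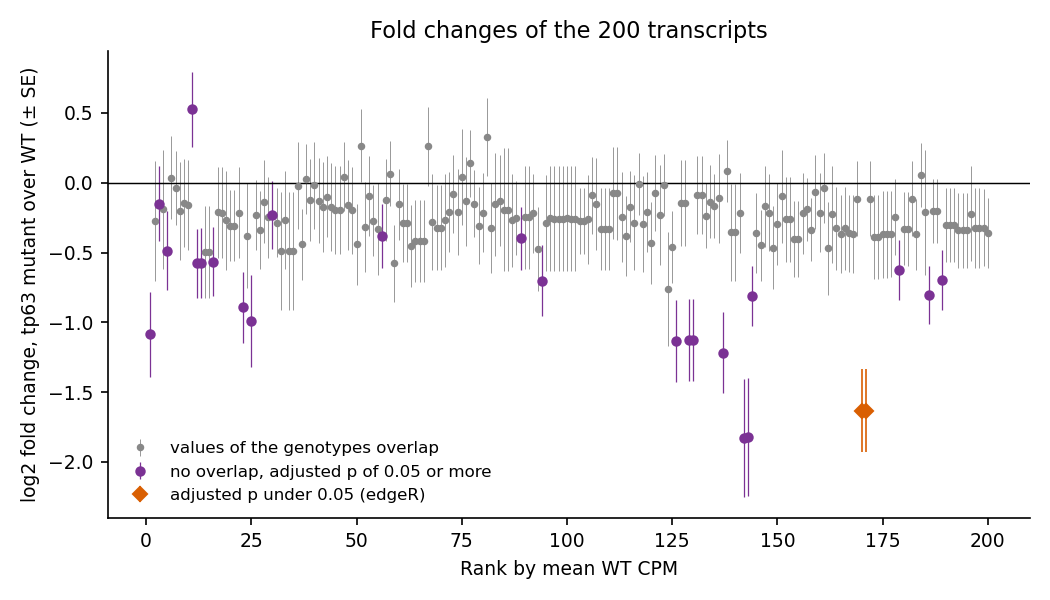
Log2 fold change of tp63 mutants over WT (edgeR, normalized CPM scale) with its standard error for the 200 members, against their rank by mean WT CPM. Grey points are members whose genotypes overlap, purple points those without overlap that did not pass the threshold, and orange diamonds the 2 members with an adjusted p under 0.05, which lie at ranks 170 and 171. Most points lie slightly under 0, where 188 of the 200 are negative, and a few reach under -1.

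Small negative values were common among the members. With TMM normalization 188 (140 sets) of the 200 log2 fold changes were negative and their median was -0.27, with quartiles of -0.37 and -0.16, where the median of all transcripts tested was 0.01. Scaled by total counts alone, the median of all transcripts tested moved by 0.17 to 0.18, that of the members stood at -0.06, and 138 members were negative. Relative to the median of all transcripts tested, 188 members were lower on either scale. Rescaling libraries moves all log2 fold changes by nearly the same amount, so these counts had to be alike and nothing is read from it. The absolute log2 fold change was under 0.5 for 178 members (89.0%). A change of at least 0.5 was seen in 22 of the 200 members and in 22.6% of all transcripts tested. The other transcripts tested have lower WT levels, and counting error grows as counts fall. The shares thus differ in precision, and nothing is read from their difference.

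Single libraries weighed on this median. It was -0.10 without WT replicate 1, with 128 negative members, and -0.13 without tp63 mutant replicate 2, with 146 negative members. Without WT replicate 2 it was -0.46, with 193 negative members. The members' median level varied with a pooled SD of 0.31 (log2) between libraries of a genotype, beside a median log2 fold change of -0.27 in all samples. This SD is that of single libraries and not of a difference between group means, so it is given as a description. The negative median was also not confined to the highest ranks. The median log2 fold change was -0.22 at WT ranks 1 to 50, -0.26 at ranks 51 to 100, -0.30 at ranks 101 to 200, -0.18 over the next 200 ranks and -0.13 at ranks 1001 to 5000. Chosen by their mean in the mutant samples instead, the top 200 had a median of -0.22 with 181 negative values. Of these 200, 179 were members as well, so a like median was nearly fixed in advance and nothing is read from it. None of the mutant top 200 was called in either direction by edgeR, where 1.22% of all transcripts tested were down and 0.272% up. A choice by mutant level leaves out strongly lowered transcripts, such as the called pair at mutant ranks 528 and 530. Nothing is therefore read from the absence of down-regulated ones.

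The order of the most abundant transcripts was largely shared by the genotypes. Of the 200 members, 179 were also among the 200 most abundant transcripts of tp63 mutants by mean CPM. This held for all members of WT ranks 1 to 100, and 9 of the first 10 and 46 of the first 50 kept their place among as many in mutants. When each sample ranked its own transcripts, 183, 165 and 179 members were in the top 200 of tp63 mutant replicates 1, 2 and 3. In WT replicates 1, 2 and 3 these were 183, 172 and 189, so single WT samples lacked some members as well. By mean CPM, the transcript of rank 2 in WT was the most abundant in mutants, followed by those of WT ranks 3, 4 and 1. The order differed between the mutant samples. In tp63 mutant replicate 2 the transcript of WT rank 2 had 4618 CPM, under 7650 CPM at WT rank 3 and 5401 CPM at WT rank 1. The 21 members (14 sets) that left the mutant top 200 came from WT ranks 124 to 200, of which 13 lay beyond rank 150, and the lowest of them stood at rank 542 in mutants. Their log2 fold changes ran from -1.83 to -0.32, as a description, since a lower mutant level is what placed them there.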

How the data were processed

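Per the study's methods and the submitters' notes, the authors aligned reads with STAR to GRCz10 and counted them per Ensembl transcript with HTSeq. The deposited values are raw counts of each of 6 samples, with no normalization and no pooling of replicates. Counting options are not given in the sources used here. The summary lines of HTSeq were left out. Reads listed there without a feature or with an ambiguous one equalled 7.43 to 8.72% and 24.4 to 24.8% of the assigned counts. Whether reads listed as ambiguous were also counted on transcripts is not stated and was not tested. Assigned counts were 77133790 to 81976521 per sample, more than the number of reads that the study's methods state. Shares and CPM are therefore of assigned counts and not of single reads.

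Transcripts were filtered with filterByExpr, scaled by TMM and compared as tp63 mutant over WT with edgeR's quasi-likelihood test (edgeR 4.0.16, R 4.3.3), adjusted by the Benjamini-Hochberg method over all transcripts tested at 0.05. DESeq2 1.42.0 was an alternative, and an earlier version of it is what the study's methods name for differential expression. Other alternatives changed the scaling, the filter, the samples or the choice of members. The SE given with an edgeR log2 fold change was derived from the test. It is the absolute log2 fold change divided by the square root of the F statistic. CPM, ranks and the exact permutation test were computed with Python 3.11.15, numpy 2.4.6, pandas 2.3.3 and scipy 1.17.1, and plots with matplotlib 3.10.9. The test was checked on simulated data.

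Replicates were stated to be biological. The members and lists were chosen with earlier results of these data known. By identifier, the rule named in each direction the called member without overlap of largest change and the one of smallest adjusted p, and by rank the 10 most abundant and the border of the choice. Ranks 11, 23, 137 and 142 were added after their values were seen.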

Additional observations from a re-analysis of the deposited data

How the results depend on the processing

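Of the members, 2 were down-regulated in the edgeR fit. The count was 15 with DESeq2, 4 with no filter on low counts (1.17% of all tested were down), 13 without both libraries numbered 2 and 0 when scaled to the members' summed counts (0.512% of all tested), the last 2 settings being chosen after seeing the data. Leaving out single libraries gave 0 to 4. Other choices of members gave 0 of 200 (by mutant mean or by the mean of all 6 samples), 0 of 100 (top 100) and 8 of 400 (top 400). In that edgeR fit 1.22% of all transcripts tested were down. With the replicate block 17 members were down and 0 up, against 2.94% and 2.09% of all tested. The labels do not state that samples of the same number belong together. Same-numbered correlations were 0.63, 0.51 and -0.11 for replicates 1, 2 and 3. Each of the first 2 was the highest correlation of that mutant replicate with any WT replicate. Over all pairs of a mutant with a WT replicate, such correlations ran from -0.61 to 0.63. Whether the samples are paired was not tested. Members without overlap and lower in tp63 mutants numbered 119 without both libraries numbered 2, where 24.0% of all transcripts tested were so. Those higher numbered 8 in CPM of total counts, 6 when scaled to the members' sum (14.2% of all tested) and 6 without both libraries numbered 2 (26.1% of all tested). The median coefficient of variation in WT was 11.0% in CPM of total counts. Of 15 transcripts followed through the alternatives, those of ranks 1, 5, 11, 23, 142, 170 and 171 kept the sign of their log2 fold change in each one. The other 8, none of which passed the test, did not. Scaled to the members' summed counts, the log2 fold change became 0.016 at rank 2, 0.12 at rank 3, 0.11 at rank 4, 0.23 at rank 7, 0.13 at rank 8, 0.15 at rank 9 and 0.14 at rank 10. With total counts only it became 0.026 at rank 3, 0.0027 at rank 4, 0.14 at rank 7, 0.0088 at rank 8, 0.045 at rank 9 and 0.031 at rank 10. These scalings raised the median of all transcripts tested to 0.28 and 0.18. Leaving out single libraries gave -0.55 to 0.13 at rank 2, -0.45 to 0.25 at rank 4, -0.089 to 0.20 at rank 6, -0.14 to 0.030 at rank 7, -0.49 to 0.018 at rank 8, -0.33 to 0.077 at rank 9 and -0.36 to 0.078 at rank 10. The causes of the other shifts were not tested.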

Other observations

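Since both lists hold 200 transcripts, as many had to enter the 200 most abundant of tp63 mutants as left it. These 21 came from WT ranks 203 to 327 and reached rank 116 at best in mutants. Their log2 fold changes ran from -0.19 to 0.73, and none passed the threshold in edgeR, with a smallest adjusted p of 0.494. The transcript of WT rank 327 had 679, 1182 and 964 CPM in tp63 mutant replicates 1, 2 and 3, against 234, 708 and 592 CPM in WT replicates 1, 2 and 3, so that the genotypes overlapped.

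In all 6 files, the number of reads listed for low alignment quality equalled the number listed as not uniquely aligned.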
